A study of Mus musculus with 6 samples.

Results

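Expression of 37 genes for lysosome enzymes, lysosome membrane proteins, the proton pump and the transcription factors that control them was followed in cultured mouse bone marrow mesenchymal stem cells, the stromal progenitors of bone, cartilage and fat. The 37 were matched by gene symbol and stood among 15063 listed genes. They comprised 9 proteases and their partners, 8 glycosidases, 6 lipid hydrolases and sterol transporters, 6 membrane proteins, 6 V-ATPase genes and 2 transcription factors. Cells came from the marrow of 3-week-old mice, wild type (WT, 3 libraries) or with a conditional knockout of Mapk7 (CKO, 3 libraries), the gene for the MAP kinase ERK5. The cells were at passage 5, except those of WT library 2, which were at passage 7. WT libraries 1 and 2 carry the same animal label, and for WT library 3 the sample description and the header of the file name different animals. The Cre driver, the floxed allele, the strain and any pooling of animals are not stated in the labels or files used. The series title names Mapk7 as a regulator of the bone to fat balance through Lrp6 and β-catenin. The lysosome genes were compared between the genotypes and with Lyz2, the macrophage lysozyme gene.

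Lysosomes are acid organelles in which hydrolases break down protein, glycan and lipid that arrive by endocytosis, phagocytosis and autophagy. The V-ATPase pumps protons into the lumen, heavily glycosylated membrane proteins such as Lamp1 line it, and carriers such as Npc1 and Npc2 export the products. Tfeb and Tfe3 bind an E-box type sequence, the CLEAR element, at many lysosome genes and raise their transcription when they enter the nucleus, so their activity is set largely by location and not by transcript level. Macrophages are rich in lysosomes, and stromal cells carry them as well.

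The element is shown first because it is the known sequence at which Tfeb and Tfe3 act on lysosome genes. Of the 37 members, 31 had a promoter entry in RefSeq (build GRCm38.p6; 250 bases before to 50 after the gene start), and no value of the expression files was used to search them. On either strand, 11 members held CACGTG (35.5%, against 8.09% of the 27025 genes with an entry), 10 held TCACGTG (32.3% against 4.29%) and 6 held TCACGTGA (19.4% against 1.12%). These motifs are nested, so each shorter count includes the longer. Among the 8917 genes tested for expression that had an entry, CACGTG was found in 12.1%, TCACGTG in 7.22% and TCACGTGA in 2.39%. The 10 members with TCACGTG were Ctsa, Ctsd and Lgmn among the proteases, Gaa, Gla and Glb1 among the glycosidases, the membrane protein genes Lamp1 and Mcoln1, and the V-ATPase genes Atp6v0d1 and Atp6v1a. The 9 windows printed here, from 7 of these members, run 5′ to 3′ on the strand of the gene, with the match in capitals and GRCm38.p6 coordinates. They were chosen to show the symmetric form TCACGTGA at members of several classes, the shorter form at Gaa and Lamp1, and the repeats at Ctsa and Lamp1.
Ctsd, chr7:142387908-142387937, minus strand: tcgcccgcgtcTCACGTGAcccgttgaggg
Ctsa, chr2:164833749-164833778, plus strand: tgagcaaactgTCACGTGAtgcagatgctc
Ctsa, chr2:164833766-164833795, plus strand: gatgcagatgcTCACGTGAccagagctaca
Gaa, chr11:119267811-119267839, plus strand: tttctgtgcgaTCACGTGtttgactctga
Gla, chrX:134601215-134601244, minus strand: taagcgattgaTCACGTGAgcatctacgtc
Lamp1, chr8:13159088-13159116, plus strand: agggcaagataTCACGTGgtccagcgccc
Lamp1, chr8:13159134-13159162, plus strand: acgtgaccacaTCACGTGcggaacggagc
Mcoln1, chr8:3500462-3500491, plus strand: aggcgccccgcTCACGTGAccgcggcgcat
Atp6v1a, chr16:44139373-44139402, minus strand: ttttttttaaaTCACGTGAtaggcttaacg
Over the whole promoter entry, Lamp1 held 4 matches to TCACGTG on either strand, and Ctsa, Ctsd, Gla and Mcoln1 held 2 each. A match is a run of letters and not a measured binding site.

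The libraries held 17351907 to 20689481 recovered reads, of which 99.1% to 99.6% lay in listed genes. Mapk7 was 7.12, 6.76 and 9.07 RPKM across WT libraries 1, 2 and 3, and 5.59, 3.84 and 5.45 RPKM across CKO libraries 1, 2 and 3. All CKO libraries lay below all WT libraries, with a log2 difference of -0.54 ± 0.23 (SE) that did not pass limma's test (adjusted p = 0.505), and residual transcript was present in each CKO library. Which exons were deleted, and so whether the counted region includes them, is not stated in the labels. Col1a1, the type I collagen gene, ranged from 1126 to 2959 RPKM, and 14 of the 15 listed stromal markers reached the level for testing. Lepr, a marker of marrow stroma, stayed under 1 RPKM. Macrophage transcripts were present in each culture: Lyz2 was 827, 686 and 1590.0 RPKM in the WT cultures and 529, 321 and 2948 RPKM in the CKO cultures, and none of the 27 listed macrophage markers was at 0 in any library. The summed level of these markers was 1224, 954 and 2674 RPKM in the WT cultures against 851, 567 and 3773 RPKM in the CKO cultures. Library 3 was highest in each genotype, and Lyz2 made up most of each sum. With each of the 27 markers weighed alike, the mean log2(RPKM + 1) was 3.57, 2.88 and 4.91 in the WT cultures. In the CKO cultures it was 3.44, 2.69 and 4.52, so that WT library 3 was highest of all libraries. The 7 endothelial markers were all under 1 RPKM, as were 5 of 7 osteoclast markers. The summed level of the 5 listed granulocyte markers was 4.47, 0.214 and 3.15 RPKM in the WT cultures. In the CKO cultures it was 3.23, 0.391 and 7.99 RPKM. S100a8 was the only tested gene among them and made up most of the sum in CKO library 3. The part of granulocytes in the level of Lyz2 was not tested.

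The lysosome genes were expressed in each library. Ctsd, the aspartic protease cathepsin D, was the most abundant per length and the single member among the 100 genes of highest mean RPKM. Levels spanned from Tfeb at 0.485 to 1.99 RPKM to Ctsd at 444 to 1601 RPKM. Together the 37 genes took 1.04%, 1.37% and 1.40% of the reads in WT and 0.821%, 1.13% and 1.60% in CKO, so that the lowest and the highest shares were both in CKO. No member passed the test between the genotypes.

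**Figure D1:**
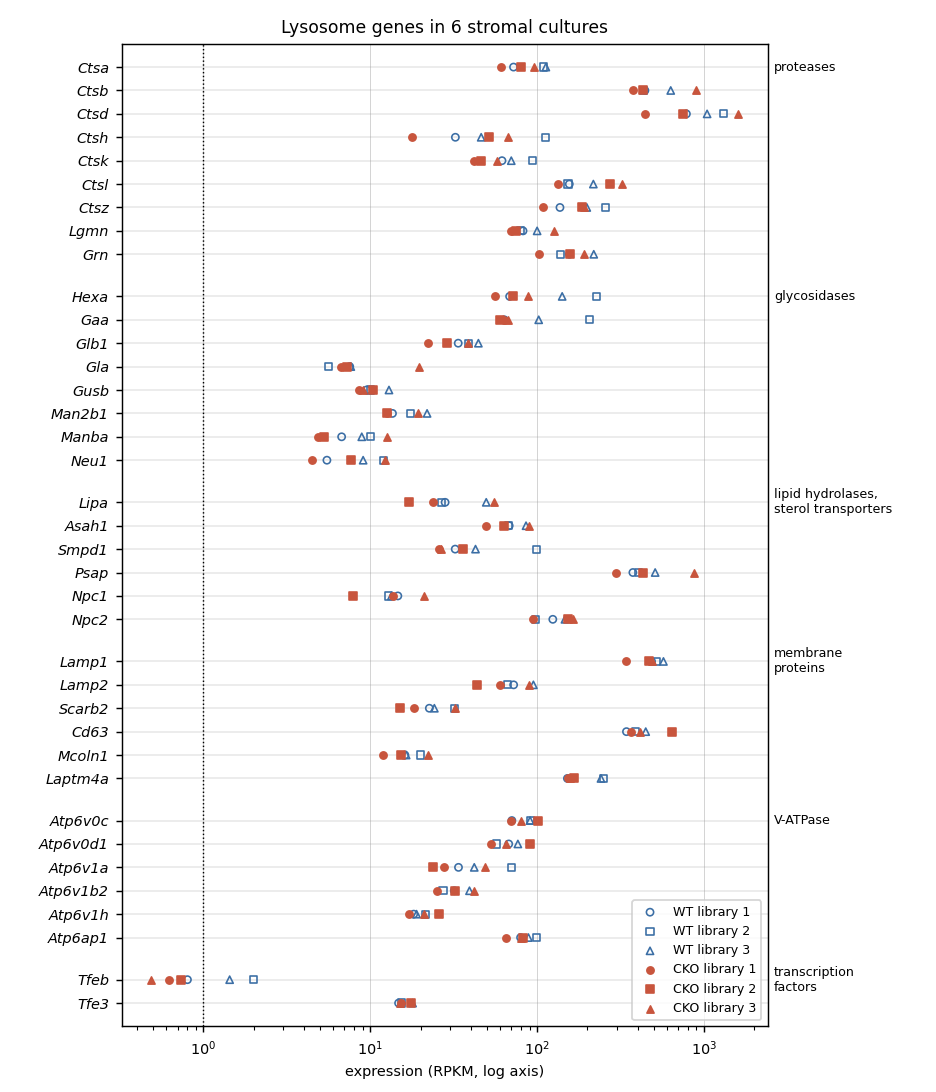
Expression of the 37 lysosome genes (RPKM, log axis) in each of the 6 libraries, with open blue symbols for WT and filled red symbols for CKO; the dotted line marks 1 RPKM. CKO library 1 and CKO library 3 mark opposite ends for many genes, as for Ctsd at 444 and 1601 RPKM.

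Among the proteases, which cleave protein cargo in the lumen, 6 of 9 genes had a negative log2 difference (CKO minus WT) with a median of -0.29. Cathepsin D transcript (Ctsd) was 784, 1313 and 1043 RPKM across WT libraries 1, 2 and 3, and 444, 751 and 1601 RPKM across CKO libraries 1, 2 and 3. The lowest and the highest library were both CKO, and the genotypes overlapped (log2 difference -0.34 ± 0.52 with its SE, as for all such values here; limma adjusted p = 0.846). Ctsb, a cysteine protease, was 442, 435 and 631 RPKM in the WT cultures and 373, 428 and 892 RPKM in the CKO cultures, with CKO library 3 highest, CKO library 1 lowest and the other 4 libraries between them. Its log2 difference was 0.08 ± 0.42 (limma adjusted p = 0.964). Ctsk, the collagen-degrading cathepsin best known from osteoclasts, was 61.5, 94.1 and 69.9 RPKM in the WT libraries against 41.9, 46.1 and 57.2 RPKM in the CKO libraries. It was the single tested member whose genotypes did not overlap, with the highest CKO library below the lowest WT library. Its mean was 75.2 ± 16.9 RPKM for WT and 48.4 ± 7.90 RPKM for CKO (SD, n = 3 libraries each). Of the WT libraries, 1 and 2 share an animal label. Its log2 difference of -0.62 ± 0.26 missed the threshold in limma after adjustment over all genes (adjusted p = 0.502). Values ran from -0.75 to -0.44 when single libraries were left out. The osteoclast markers Dcstamp and Ocstamp were at 0 in 3 and 1 of the 6 libraries and under 1 RPKM in all, while Mmp9 was 0.649, 0.0380 and 0.317 RPKM in the WT cultures and 0.194, 0.420 and 21.1 RPKM in the CKO cultures. Nfatc1, an osteoclast transcription factor gene, was the only tested gene of the 7 listed osteoclast markers. It was 6.62, 4.58 and 4.99 RPKM in the WT cultures and 4.85, 3.20 and 1.64 RPKM in the CKO cultures. The genotypes overlapped, and its log2 difference had the sign of Ctsk (-0.66, limma adjusted p = 0.568). Known from osteoclasts as well, Acp5, Tcirg1 and Atp6v0d2 of the other pathway lists were highest in CKO library 3, at 10.4, 28.4 and 4.22 RPKM. Their log2 differences were -0.09 for Acp5 and 0.57 for Tcirg1, neither past the threshold, and Atp6v0d2 was not tested. The summed level of the 7 listed osteoclast markers was 5.46 to 8.52 RPKM in WT libraries and 4.33 to 24.5 RPKM in CKO libraries. The top of 24.5 RPKM was in CKO library 3, where Mmp9 made up most of the sum and Nfatc1 was at its lowest level. The part of the osteoclast markers in the level of Ctsk was not tested.

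Ctsl, another cysteine protease, was 156, 153 and 217 RPKM in the WT cultures and 132, 274 and 322 RPKM in the CKO cultures. CKO libraries 2 and 3 were above all WT libraries and CKO library 1 below them, giving a log2 difference of 0.39 ± 0.39 (limma adjusted p = 0.749). Ctsa, which shields β-galactosidase and sialidase from degradation, was 72.1, 109 and 113 RPKM in the WT cultures and 60.3, 79.5 and 95.2 RPKM in the CKO cultures, with CKO library 1 lowest and WT library 3 highest (log2 difference -0.31 ± 0.29, limma adjusted p = 0.733). Ctsh, an aminopeptidase, had the widest range of the 37 by ratio, 17.8 to 113 RPKM, from CKO library 1 to WT library 2. The carboxypeptidase gene Ctsz ranged from 108 to 256 RPKM, the asparaginyl endopeptidase gene Lgmn from 69.4 to 126 RPKM and the progranulin gene Grn from 103 to 218 RPKM. Their log2 differences were -0.47 for Ctsh, -0.29 for Ctsz, 0.01 for Lgmn and -0.20 for Grn, none past the threshold. Without CKO library 1 the median of the 9 proteases was 0.09, with 3 of 9 below 0.

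Glycosidases remove sugars from glycans and glycolipids, and 7 of the 8 had a negative difference, with a median of -0.25. Hexa, the α subunit of β-hexosaminidase, was 68.4, 228 and 141 RPKM across WT libraries 1, 2 and 3, and 56.0, 71.6 and 87.5 RPKM across CKO libraries 1, 2 and 3. WT libraries 2 and 3 were above every CKO library, whereas WT library 1 lay within the CKO range. The means were 146 ± 79.8 RPKM for WT and 71.7 ± 15.8 RPKM for CKO (SD, n = 3 libraries each). The log2 difference of -0.87 ± 0.45 was the most negative of the 36 tested (limma adjusted p = 0.582). Gaa, the acid α-glucosidase that degrades glycogen, was 63.6, 206 and 102 RPKM in the WT cultures and 63.7, 60.2 and 66.7 RPKM in the CKO cultures. The CKO libraries were close to one another and to WT library 1, and WT library 2 was more than 1.5 times any other WT library. Its log2 difference was -0.79 ± 0.42 (limma adjusted p = 0.589). Without WT library 2, the passage 7 culture, these differences were -0.47 for Hexa and -0.34 for Gaa.

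Glb1, β-galactosidase, was 33.6, 38.7 and 44.4 RPKM in the WT cultures and 22.1, 28.9 and 38.4 RPKM in the CKO cultures. CKO libraries 1 and 2 lay below all WT libraries and CKO library 3 within the WT range (log2 difference -0.40 ± 0.26, limma adjusted p = 0.639). Gla, the α-galactosidase that cleaves globotriaosylceramide, stood apart in direction, with a log2 difference of 0.47 that was 0.02 without CKO library 3. CKO library 3 was at 19.5 RPKM and the other 5 libraries were between 5.61 and 7.64 RPKM. Manba, a β-mannosidase, ranged from 4.86 to 12.7 RPKM and Neu1, a sialidase, from 4.46 to 12.2 RPKM, both lowest in CKO library 1 and highest in CKO library 3. Gusb, the β-glucuronidase, and Man2b1, an α-mannosidase, ranged from 8.54 to 12.9 and 12.5 to 21.9 RPKM. Their log2 differences were -0.25 for Manba, -0.14 for Neu1, -0.18 for Gusb and -0.24 for Man2b1, none past the threshold.

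Of the lipid hydrolases and sterol transporters, 4 of 6 were below 0, with a median of -0.10. Smpd1, the acid sphingomyelinase, was 32.3, 98.6 and 42.7 RPKM across WT libraries 1, 2 and 3, and 25.8, 36.2 and 26.5 RPKM across CKO libraries 1, 2 and 3. WT library 2 stood alone, and the other 5 libraries lay between 25.8 and 42.7 RPKM. Its log2 difference was -0.80 ± 0.41 (limma adjusted p = 0.584), and -0.34 without WT library 2. Lipa, the acid lipase that frees cholesterol and fatty acids from lipoprotein lipid, was 28.1, 26.6 and 49.5 RPKM in the WT cultures and 23.7, 17.1 and 54.8 RPKM in the CKO cultures. Library 3 was highest in both genotypes, and the genotypes overlapped (log2 difference -0.23 ± 0.45, limma adjusted p = 0.876). Psap, the precursor of the saposin activators of sphingolipid hydrolases, was 375, 403 and 509 RPKM in the WT cultures and 295, 431 and 873 RPKM in the CKO cultures. CKO library 3 was 1.5 times or more above each other CKO library, and CKO library 1 was lowest of the 6. The log2 difference of Psap was 0.18 ± 0.44 (limma adjusted p = 0.909).

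Asah1, acid ceramidase, was 68.0, 66.9 and 85.7 RPKM in the WT cultures and 49.1, 63.6 and 89.2 RPKM in the CKO cultures, a narrower spread with the same extremes in CKO (log2 difference -0.16 ± 0.28, limma adjusted p = 0.867). Npc2, the soluble sterol carrier, was 124, 98.1 and 147 RPKM in the WT libraries against 95.0, 153 and 163 RPKM in the CKO libraries. The genotypes of Npc2 overlapped over nearly the whole range (log2 difference 0.14). Npc1, its membrane partner, was 13.6 ± 0.898 RPKM for WT and 14.2 ± 6.64 RPKM for CKO (SD, n = 3 libraries each). Though its mean RPKM was higher in CKO, its log2 difference was -0.04 ± 0.33 (limma adjusted p = 0.975). The WT libraries were close together, and CKO libraries 2 and 3 held the lowest and the highest level, 7.84 and 21.1 RPKM.

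Of the 6 membrane protein genes, 5 had a negative difference, with a median of -0.30 and none past the threshold. Lamp1, the most abundant lysosome membrane glycoprotein gene here, was 484, 516 and 571 RPKM across WT libraries 1, 2 and 3, and 341, 466 and 486 RPKM across CKO libraries 1, 2 and 3. CKO library 1 was lowest and the other 5 libraries lay within 466 to 571 RPKM (log2 difference -0.29 ± 0.30, limma adjusted p = 0.751). Lamp2, another such glycoprotein that also serves chaperone-mediated autophagy, was 72.2, 66.2 and 94.9 RPKM in the WT cultures and 60.1, 43.8 and 88.8 RPKM in the CKO cultures. Here CKO library 2 was lowest, and library 3 was highest in each genotype (log2 difference -0.31 ± 0.32, limma adjusted p = 0.749). Scarb2, the carrier of β-glucocerebrosidase to the lysosome, was 22.6, 32.0 and 24.2 RPKM in the WT cultures and 18.4, 15.0 and 32.2 RPKM in the CKO cultures, with WT library 2 and CKO library 3 level at the top (log2 difference -0.31).

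Laptm4a was 152, 250.1 and 241 RPKM in the WT cultures and 152, 165 and 156 RPKM in the CKO cultures. WT libraries 2 and 3 were above all CKO libraries and WT library 1 was at the level of CKO library 1 (log2 difference -0.40 ± 0.29, limma adjusted p = 0.666). Cd63, a tetraspanin of late endosomes and exosomes, was the exception in sign: it was 343, 389 and 447 RPKM in the WT cultures and 365, 644 and 414 RPKM in the CKO cultures, with CKO library 2 the only one above 447 RPKM (log2 difference 0.23 ± 0.33). Mcoln1, the calcium channel TRPML1, was 16.1, 20.0 and 16.4 RPKM in the WT cultures and 11.9, 15.4 and 22.2 RPKM in the CKO cultures. Its lowest and highest libraries were both CKO (log2 difference -0.12 ± 0.26, limma adjusted p = 0.893).

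The V-ATPase genes had a median of -0.01, with 4 of 6 below 0. Atp6v1a, the catalytic subunit of the cytosolic sector, was 33.8, 70.2 and 42.0 RPKM across WT libraries 1, 2 and 3, and 27.8, 23.7 and 48.4 RPKM across CKO libraries 1, 2 and 3. WT library 2 was highest and CKO library 2 lowest (log2 difference -0.53 ± 0.37, limma adjusted p = 0.657). Atp6ap1, an accessory subunit, was 79.5, 99.0 and 88.6 RPKM in the WT cultures and 65.2, 81.7 and 79.7 RPKM in the CKO cultures, with CKO library 1 lowest and the other 5 libraries between 79.5 and 99.0 RPKM (log2 difference -0.24 ± 0.23, limma adjusted p = 0.743). Atp6v0c, which forms the proton-carrying ring, was 70.5, 91.1 and 90.7 RPKM in the WT cultures and 70.0, 102 and 80.1 RPKM in the CKO cultures, with library 1 lowest in both genotypes and a log2 difference of -0.01.

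Atp6v1h, a regulatory subunit, was 18.2, 21.4 and 18.9 RPKM in the WT cultures and 17.0, 25.9 and 21.0 RPKM in the CKO cultures, and its log2 difference was 0.10 ± 0.22 (limma adjusted p = 0.887). The ring-coupling subunit gene Atp6v0d1 ranged from 52.5 to 90.3 RPKM and the non-catalytic subunit gene Atp6v1b2 from 25.1 to 41.9 RPKM. Their log2 differences were 0.02 and -0.01. In Atp6v0c, Atp6v0d1 and Atp6v1h the highest of the 6 libraries was CKO library 2.

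The transcription factor pair showed unlike patterns. Tfe3 was 14.8, 15.3 and 17.9 RPKM across WT libraries 1, 2 and 3, and 15.3, 17.5 and 15.1 RPKM across CKO libraries 1, 2 and 3, the narrowest range of the 37 by ratio, with a log2 difference of -0.002 ± 0.191 (limma adjusted p = 0.999). Tfeb was 0.802, 1.99 and 1.44 RPKM in the WT libraries against 0.623, 0.733 and 0.485 RPKM in the CKO libraries. Every CKO library was below every WT library, at 65 to 310 recovered reads per library. Tfeb had 1 RPKM or more in only 2 libraries and was not among the tested genes. A fit without the filter on low values gave a log2 difference of -0.55 ± 0.23 (limma adjusted p = 0.535), on a log2(RPKM + 1) scale that compresses such low levels. For one gene in 3 against 3 libraries, the smallest p that exact permutation allows is 0.1.

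Across the list, 0 of 36 tested members passed the genotype test (limma, adjusted p under 0.05), against 1 of 11085 tested genes (0.00902%), and limma-voom on the recovered reads also gave 0 members. At an unadjusted p under 0.05, 1 member (Ctsk) was counted, against 9.74% of all genes. Ctsk and the untested Tfeb were the 2 members whose CKO libraries all lay below WT, against 9.18% of tested genes, and no member had all CKO libraries above WT, against 7.51%. Of the tested members, 27 had a negative log2 difference and 9 a positive one (75.0% below 0, against 46.3% of all genes), and the median was -0.22 against 0.03 over all genes. The median moved with the libraries: it was 0.002 with 18 of 36 below 0 without CKO library 1, -0.39 with 29 below 0 without CKO library 3, -0.33 with 28 without WT library 1, -0.15 with 28 without WT library 2, -0.09 with 23 without WT library 3 and -0.15 with 27 without CKO library 2. The stromal markers had a negative median as well, -0.44 over the 14 tested, with 10 below 0 and none past the threshold. In 4 of them every CKO library lay below every WT library: Pdgfra (log2 difference -1.89, limma adjusted p = 0.450), Pdgfrb (-0.94, adjusted p = 0.350), Ly6a (-1.39, adjusted p = 0.397) and Cxcl12 (-1.24, adjusted p = 0.376). In Cd44 (log2 difference 1.22, limma adjusted p = 0.507) every CKO library lay above. The summed level of the 15 listed stromal markers was 5778 to 6834 RPKM over WT libraries and 3427 to 7207 RPKM over CKO libraries. It was highest in CKO library 1 and lowest in CKO library 3, and Col1a1, Col1a2 and Col3a1 made up most of it. The mean log2(RPKM + 1) over these 15 was 6.21, 6.12 and 6.17 across WT libraries 1, 2 and 3. It was 6.01, 5.52 and 5.68 across CKO libraries 1, 2 and 3. The part of the stromal markers in the members' differences was not tested. In the tested members that held TCACGTG near the start, the median was -0.30 (7 of 10 below 0), and in those with an entry and no match it was -0.24 (16 of 20 below 0).

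**Figure D2:**
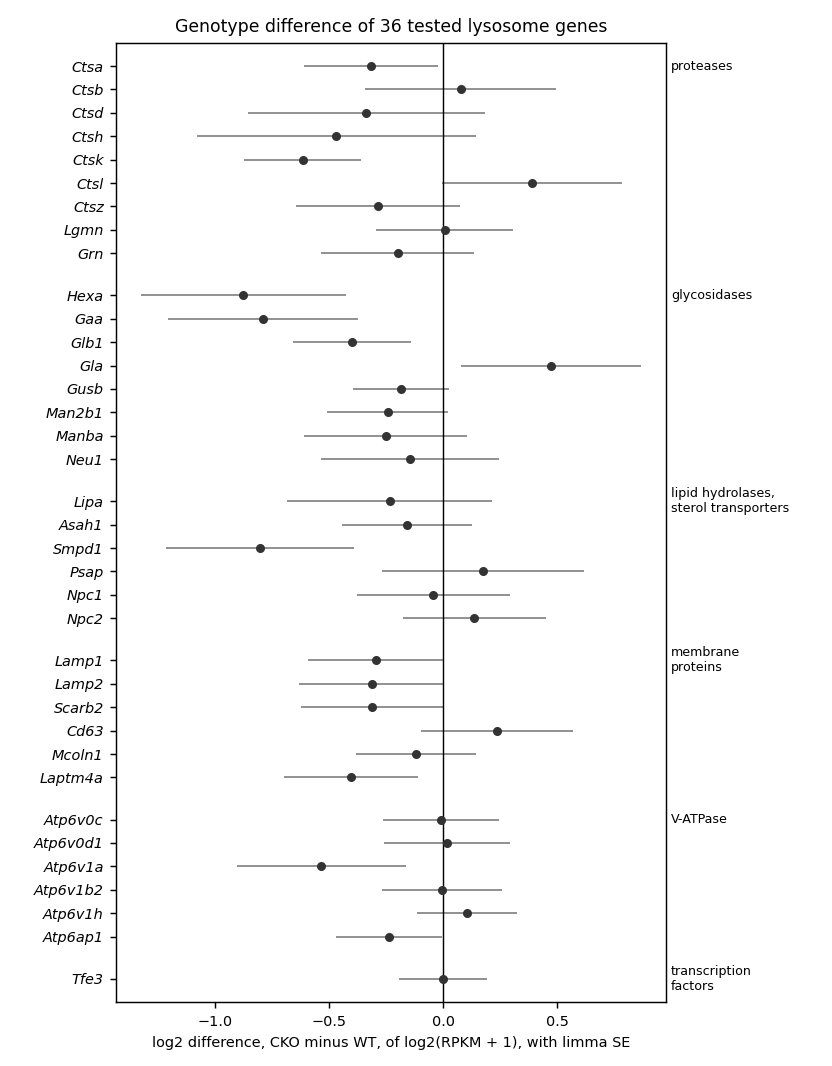
Log2 difference, CKO minus WT, of log2(RPKM + 1) for the 36 tested lysosome genes by class; points are limma estimates and bars their SE from 3 libraries per genotype. Most estimates lie left of 0, with Hexa, Smpd1 and Gaa lowest at -0.87, -0.80 and -0.79, and none passed the threshold.

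The members also varied between libraries of 1 genotype. CKO library 1 held the lowest level of the 6 for 25 of the 36 tested members, against 11.4% of all tested genes, and CKO library 3 was above CKO library 1 for 35 of 36 (Tfe3 was the exception), against 50.5% of genes. CKO library 3 was the highest CKO library for 27 members (75.0%, against 34.0% of genes). It reached at least 1.5 times both other CKO libraries for 12 of them, Atp6v1a, Ctsb, Ctsd, Gla, Lgmn, Lipa, Man2b1, Manba, Neu1, Npc1, Psap and Scarb2, against 9.26% of genes. The median deviation of the members from their own means (log2 scale) was -0.13, 0.13 and 0.20 across WT libraries 1, 2 and 3, and -0.43, -0.11 and 0.31 across CKO libraries 1, 2 and 3, while that of all tested genes stayed between -0.13 and 0.05. The step from CKO library 1 to CKO library 3 was larger than the median difference between the genotypes.

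**Figure D3:**
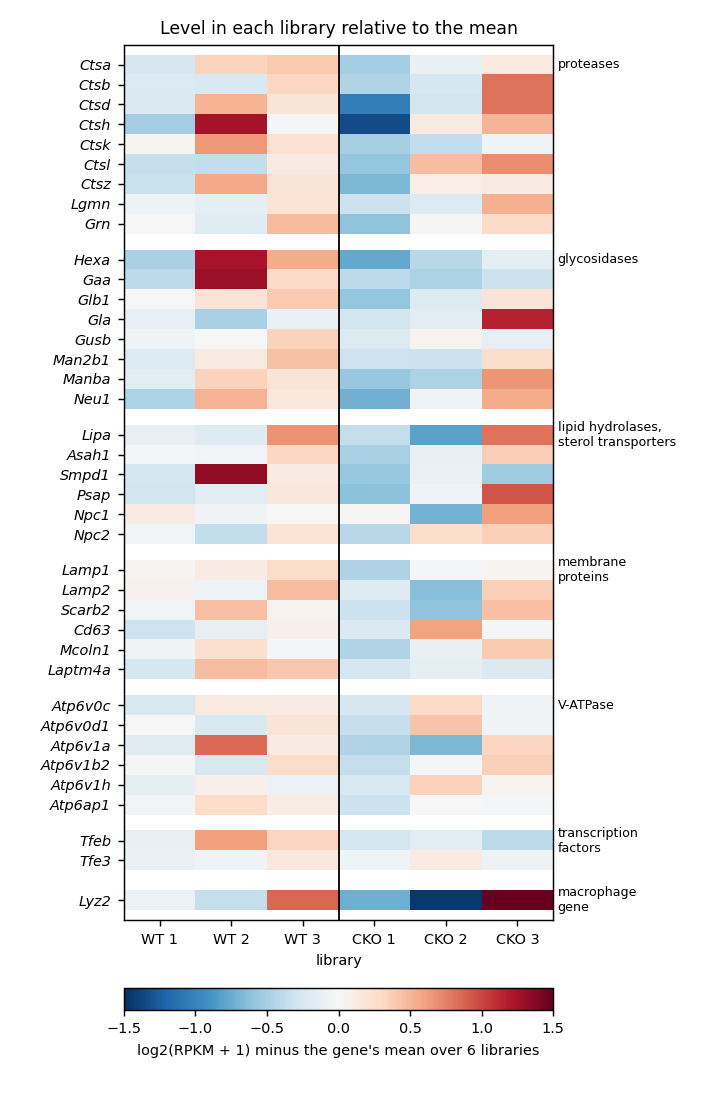
Each lysosome gene's log2(RPKM + 1) in each library minus its mean over the 6 libraries, with Lyz2 at the bottom (blue below, red above the mean, colour limits at 1.5 either way). The column of CKO library 1 is mostly blue, that of CKO library 3 mostly red, and WT library 2 is red for Ctsh, Hexa, Gaa and Smpd1.

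Within WT, library 1 was the lowest WT library for 24 of 36 members (66.7%, against 28.3% of genes) and the highest only for Npc1. WT library 3 was the highest for 19 (52.8%, against 27.8% of genes) and WT library 2 for 16 (44.4%, against 29.2%). In 5 members, Atp6v1a, Ctsh, Gaa, Hexa and Smpd1, WT library 2 was at least 1.5 times both other WT libraries, against 8.26% of genes. WT library 2 was also the lowest of the 6 for 36.9% of all tested genes but only for Gla among the members. The passage of this library (7) cannot be told apart from its other properties.

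**Figure D4:**
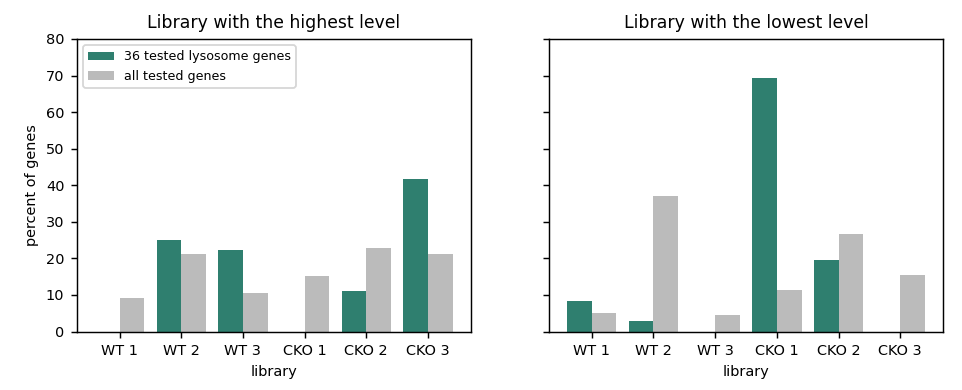
Percent of the 36 tested lysosome genes (green) and of all 11085 tested genes (grey) whose highest (left) or lowest (right) level was in each library. CKO library 1 was lowest for 69.4% of the lysosome genes and 11.4% of all genes, and CKO library 3 highest for 41.7% and 21.1%.

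Lyz2 was set beside the members because macrophages are rich in lysosomes and their transcripts were present in these cultures. In such bulk RNA, fewer cells of a type and less RNA per cell cannot be told apart. Lyz2 was highest in library 3 of each genotype, and 15 of the 36 members shared that pattern (41.7%, against 9.92% of all genes). The match was not complete. Lyz2 was lowest in CKO library 2, at 321 RPKM. There 7 members were lowest (Atp6v1a, Gaa, Lamp2, Lipa, Man2b1, Npc1 and Scarb2), 19.4% against 26.6% of all tested genes. In CKO library 1, where Lyz2 was 529 RPKM, 25 members were lowest (69.4%, against 11.4% of genes). WT library 2, with Lyz2 at 686 RPKM and summed macrophage markers lowest of the WT libraries, had the highest WT level of 16 members. That was 44.4% of the members, against 29.2% of genes.

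With genotype as a term, the slope of each gene on Lyz2 (change in log2(RPKM + 1) per unit of log2(Lyz2 RPKM + 1)) was above 0 for 29 of 36 members (80.6%, against 57.1% of genes), with a median of 0.17 against 0.02 over all genes. No member and none of 11084 genes (0%) passed at an adjusted p under 0.05 in limma. At an unadjusted p under 0.05, 5 members were counted, against 5.54% of genes: Lipa (0.53 ± 0.11, adjusted p = 0.272), Gla (0.43 ± 0.12), Npc1 (0.32 ± 0.12), Lamp2 (0.31 ± 0.11) and Manba (0.34 ± 0.13). A slope of 1 marks a gene that varies in proportion to Lyz2, and each of these lay below it. By class the median slope was 0.27 for lipid hydrolases and sterol transporters, 0.20 for proteases, 0.20 for glycosidases, 0.12 for membrane proteins and -0.01 for the V-ATPase. All 9 proteases had a positive slope, from 0.07 for Ctsz to 0.39 for Ctsb, and Smpd1 had the most negative of all at -0.16. The list's median rests on CKO library 3: without it the median slope was -0.03, with 17 of 36 above 0. In that limma fit 0 of the 36 members had an unadjusted p under 0.05, against 180 of 11084 genes. With each library left out in turn, slopes ranged from 0.50 to 0.72 for Lipa and from 0.15 to 0.51 for Gla. They ranged from 0.19 to 0.37 for Npc1, 0.27 to 0.47 for Lamp2 and -0.03 to 0.39 for Manba. Beside the members, the 24 tested macrophage markers other than Lyz2 all had a slope above 0, with a median of 0.68. Lysosome genes outside the 37 that are known from macrophages included Ctss, cathepsin S, at 1.17 ± 0.15 (adjusted p = 0.155), and Cd68, a lysosome glycoprotein, at 0.86 ± 0.15 (adjusted p = 0.228), both chosen after their values were seen.

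**Figure D5:**
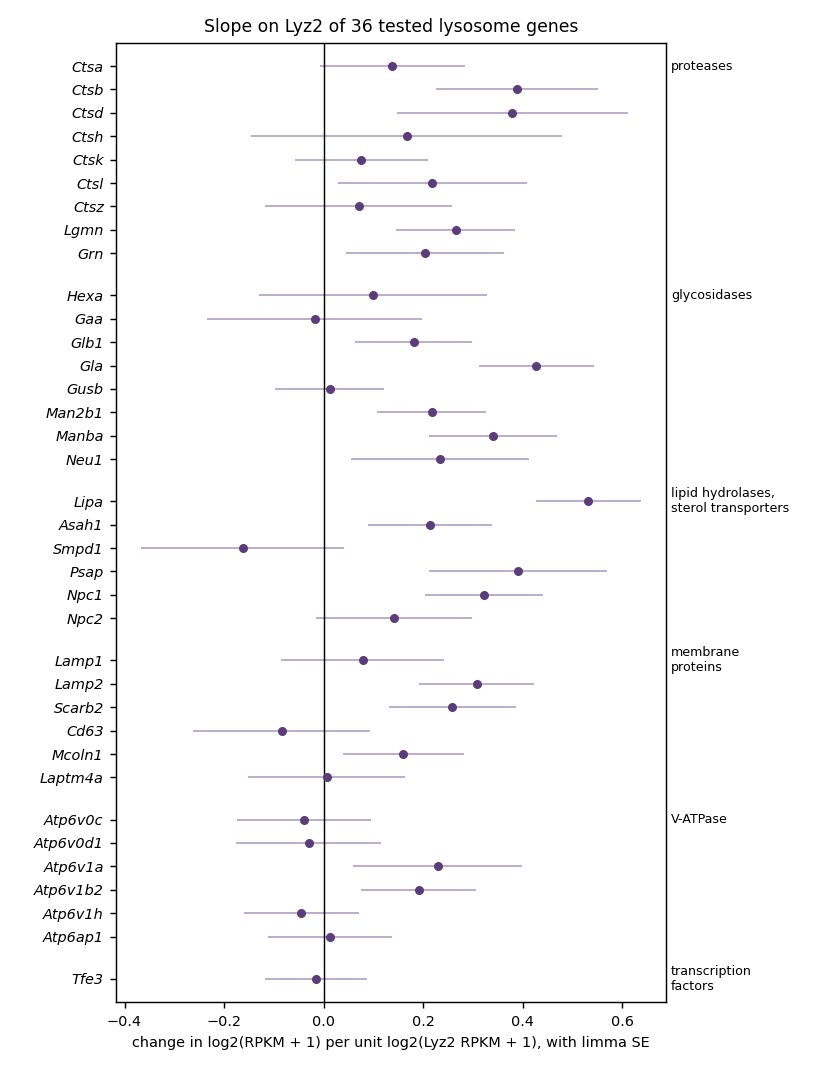
Slope on Lyz2, with genotype as a term, of the 36 tested lysosome genes by class; points are limma estimates and bars their SE, and 0 is marked. Lipa lies highest at 0.53 and Smpd1 lowest at -0.16, and the V-ATPase genes other than Atp6v1a and Atp6v1b2 lie near 0.

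With Lyz2 as a covariate in the genotype comparison, the median of the members was -0.15, with 25 of 36 below 0, and no member passed (lowest limma adjusted p 0.483). The part of the other macrophage markers in the members' levels was not tested.

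The remaining genes of the pathway, 129 by list, of which 126 were listed and 123 tested, gave no gene past the threshold in limma, and 92 of the 123 were below 0 with a median of -0.18. At an unadjusted p under 0.05, 12 of the 123 were counted, against 9.74% of all genes. The most one-sided list was that of the other lysosomal hydrolases, which also held Sumf1, Hgsnat, Gm2a and Creg1, genes that are not hydrolases. Of its genes, 28 of 29 were below 0, with a median of -0.45, and 27 to 29 were below 0 whichever single library was left out. In 7 of them all CKO libraries lay below all WT libraries, against 9.18% of tested genes. WT library 2 was the highest of the 6 in 23 of the 29, against 21.3% of all tested genes, and without it the median was -0.26. Man2b2, an α-mannosidase, was 34.2, 87.6 and 53.7 RPKM in the WT libraries against 22.5, 21.5 and 23.4 RPKM in the CKO libraries (log2 difference -1.24 ± 0.34, limma adjusted p = 0.315). Ids, the iduronate sulfatase of heparan and dermatan sulfate breakdown, was 17.4, 65.9 and 22.5 RPKM in the WT cultures and 11.8, 7.79 and 7.60 RPKM in the CKO cultures (log2 difference -1.63 ± 0.48, limma adjusted p = 0.334). For both, each CKO library was under each WT library, and WT library 2 was far above the rest.

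Among the genes listed with the other lysosomal membrane proteins, which included the tetraspanin genes Cd9 and Cd81, 20 of 25 were below 0. Laptm4b, a paralogue of Laptm4a, had the opposite sign, at 13.9, 11.0 and 13.7 RPKM in the WT cultures and 23.4, 29.9 and 37.7 RPKM in the CKO cultures, each CKO library above each WT library (log2 difference 1.15 ± 0.24, limma adjusted p = 0.258). Cd9, a tetraspanin like Cd63, was 235, 187 and 284 RPKM in the WT cultures and 88.6, 182 and 68.0 RPKM in the CKO cultures (log2 difference -1.16, limma adjusted p = 0.419). Of the 8 genes listed with the other proteases, 6 were below 0, with Ctso, a cysteine protease, at -0.70 and the gene of the cathepsin inhibitor cystatin C, Cst3, at -1.95, the latter 175 to 3468 RPKM with its maximum in WT library 2. The other V-ATPase genes had a median of -0.01 (6 of 11 below 0), with Atp6v0a1 at -0.47 and Tcirg1 at 0.57.

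Sorting genes, which tag hydrolases with mannose 6-phosphate and carry them to the lysosome, had 7 of 13 below 0, with Gnptg at -0.91 and Nagpa at -0.54. Genes for the control of TFEB at the lysosome, among them mTORC1 and folliculin components, had 12 of 17 below 0, with Tsc2 at -0.31 and Rheb at 0.44. Autophagy genes had 13 of 20 below 0. Optn, an autophagy receptor, was 5.29, 6.66 and 5.55 RPKM in the WT cultures and 2.94, 2.85 and 3.25 RPKM in the CKO cultures (log2 difference -0.76 ± 0.20, limma adjusted p = 0.303), with no overlap. Wipi2, which acts in autophagosome formation, was at 0.40, all CKO libraries above WT. None of these genes passed the threshold.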

How the data were processed

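RNA-seq was done on TRIzol RNA with stranded mRNA libraries, per the labels' protocols. The authors deposited RPKM values, reads counted per gene and scaled to gene length and library total, 1 per gene and library. The values themselves gave the unit, since the file headers name only expression. Whole reads were recovered for 15037 of 15063 genes (99.83%; within 0.01 read or a relative error of 3e-07), and for 0 of 300 genes with shuffled values. Per the submitters' processing notes, reads were placed on mm9. For aligner, counter, annotation and strand use the sources used here give nothing, so overlapping or near-identical genes may share reads. The promoter sequences are of another build, and no coordinates were converted.

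Genotypes were compared on log2(RPKM + 1) with limma 3.58.1 (trend and robust moderation) in R 4.3.3, in the 11085 genes that reached 1 RPKM in 3 or more libraries. Tables were made with Python 3.11.15 and pandas 2.3.3. Tests were two-sided, with Benjamini-Hochberg adjustment over all tested genes and a threshold of 0.05. Log2 differences understate the change of low genes. A fit with genotype and Lyz2 gave the slope on Lyz2. The scripts were tested on simulated data. The labels do not say that the libraries of a genotype come from separate cultures, so p-values measure only the spread between these libraries. The SE and SD values likewise rest only on the spread between these libraries.

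The members and all gene lists were chosen with earlier results of these data known, so their counts are descriptions. Values in every library are given for the 3 members of each class with the lowest p, the 2 with the highest mean, Tfeb, Tfe3, Lamp1, Ctsd, Ctsk and Mcoln1, and members whose genotypes do not overlap; other pathway lists give the 2 genes with the lowest p. Other genes named with values were chosen after their values were seen. Alternatives were other scalings, filters, pseudocount and moderation, voom on recovered reads, Lyz2 as a covariate, the replicate block, averaging the WT libraries of 1 animal label, and leaving out each library. Leaving out each library for the counts below 0 was added after seeing the data.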

Additional observations from a re-analysis of the deposited data

How the results depend on the processing

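No lysosome member passed the threshold in any alternative run, for genotype or for the slope on Lyz2 (lowest adjusted p 0.1999 for Hexa without WT library 1, and 0.156 for Lipa with WT libraries 1 and 2 averaged). The sign of the genotype difference held in all alternatives for 18 of 36 members and that of the slope for 15. The median member difference ranged from -0.39 to 0.002 over the fits leaving out 1 library and from -0.26 to -0.15 over the others. With WT libraries 1 and 2 averaged, 30 of 36 members were below 0. In that fit the unadjusted limma p was under 0.05 for 4 members, against 1262 of 11085 genes. The median slope ranged from -0.025 (without CKO library 3) to 0.25 (without CKO library 2) over the fits leaving out 1 library. The count of all genes past the threshold, 1 as reported, was 2 with median centring, 2 with quantile normalization, 4 with a filter at RPKM 5, 50 with WT libraries 1 and 2 averaged, and 0 with no filter, a pseudocount of 0.1, Lyz2 as a covariate or voom on recovered reads. It ranged from 0 to 44 when leaving out 1 library, highest without WT library 1 and next (19) without CKO library 1; the cause was not tested. For the slope on Lyz2, 7 genes passed without WT library 1, none of them a member. With the replicate block, 0 genes and 0 members passed and the members' median stayed at -0.22. Over all tested genes, libraries of the same number correlated in their deviations from the genotype means at 0.20, 0.01 and -0.02. Not every library correlated best with its own number. Among the 36 tested members, library 1 was the lowest WT library for 24 (66.7%, against 28.3% of genes). It was the lowest CKO library for 28 (77.8%, against 27.2%). Whether libraries of the same number shared a batch was not tested. The filter on RPKM left Tfeb out of the tested genes, at 65 to 310 reads over a counted length of 7548 bases.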
